A study of Homo sapiens with 9 samples.

Results

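The BCL2 family apoptosis regulators described here are 10 genes. The pro-survival members are MCL1, BCL2 and BCL2L1, the BH3-only members are PMAIP1, BCL2L11, BAD, BID and BBC3, and the effectors are BAX and BAK1. Members were taken as every probe set of the array whose platform gene symbol is 1 of these names. That gave 32 of 54613 probe sets and 9 of the 19775 genes measured by a probe set with 1 gene symbol. BBC3 shares its single probe set with the symbols of 2 microRNA genes, so its values are given apart and enter no count. RNA of Jurkat cells, a leukaemic T cell line of human origin, was hybridised to 9 arrays in groups of 3. The groups were cells exposed to 100 nanosecond electrical pulses (nsEP) of 10 ns at 150 kV/cm, cells given a heat shock, and sham exposed cells. All cells were treated in an electroporation cuvette, and total RNA was taken 4 h after exposure. The labels call the samples biological replicates. The RNA came from whole suspensions of 1 clonal line, so living and dying cells were not separated, and fewer cells with a transcript and less of it per cell cannot be told apart.

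Proteins of this family set whether the outer membrane of the mitochondrion stays closed. BAX and BAK1 open it when activated and release cytochrome c, the pro-survival proteins hold them and the BH3-only proteins in check, and the BH3-only proteins carry stress signals to both. Lymphoid cells depend on these proteins for survival, and MCL1 and PMAIP1 are known for short-lived transcripts and proteins that follow stress closely.

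The values are log2 MAS5 signals, and a ratio is a difference of group means on this log2 scale with the standard error (SE) of a limma fit across the array. The threshold for a call was an adjusted p below 0.05, and a gene was represented by its brightest probe set. Levels of different probe sets are not compared with each other. Of the 32 probe sets, 19 lay in the brightest quartile of the array, where the median SD within groups was 0.24, and 3 lay below the median signal. The array median was 6.25 to 6.43 in nsEP samples, 6.65 to 6.72 in heat shock samples and 6.32 to 6.42 in sham samples, and the median ratio of all probe sets was −0.01 for nsEP against sham and 0.18 for heat shock against sham. By quartile of signal, dimmest first, the heat shock median was 0.45, 0.36, 0.14 and −0.03. nsEP replicate 3 stood apart on the second principal component, at −173 against −30.6 to 62.6 for the other 8 arrays, and its 3′ minus 5′ difference for GAPDH was 0.56, the highest of the 9. The same difference for ACTB was highest in sham replicate 1, at 1.26, and was 1.24 in nsEP replicate 3. Without nsEP replicate 3 no member probe set lost or gained a call in nsEP against sham or nsEP against heat shock. All 10 T cell markers measured lay above the median signal in all 3 groups. Of these, CD2 and CD28 were lower after heat shock (log ratios −1.79 and −1.01, adjusted p = 7.39e-05 and 0.0115; that of CD28 was 0.0639 without heat shock replicate 1 and 0.0612 without sham replicate 2), and the summed signal of the list was 64620 to 94311 in nsEP, 65622 to 87019 in heat shock and 67802 to 73797 in sham samples. In the order nsEP, heat shock and sham, 3, 4 and 3 of 6 B cell markers also lay above the median signal. So did 2, 3 and 2 of 6 myeloid markers. No B cell marker was called in any comparison. Of the 6 myeloid markers measured 1 was called after heat shock, CD14, with log2 signals of 7.09, 6.69 and 7.42 in heat shock samples and 1.26, 2.87 and 2.74 in sham samples. These sham signals are in the dim range, and the heat shock ratio was 4.78 (adjusted p = 0.00193) but 2.16 with 32 signal units added before log2. FCGR1A, another marker of the list, had a ratio of −1.50 (adjusted p = 0.375), and the summed signal of the 6 was 332 to 440 in nsEP, 571 to 709 in heat shock and 349 to 380 in sham samples. The part of these shifts in the results below was not tested.

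In nsEP against sham, 0 of the 9 members and 0 of their 32 probe sets were called by limma, beside 0.0607% of all genes and 0.0586% of all probe sets. With p below 0.05 before adjustment there were 7 of 32, beside 7% of all probe sets. These 7 were probe sets of MCL1, PMAIP1 and BAD only, and probe sets of the same gene are not independent. Among the members at their brightest probe sets, only PMAIP1 was below 0.05. The methods' t-test, at an unadjusted p of 0.05 or less, passed 1 of the 9 members, PMAIP1, beside 4.97% of all genes, and passed none of them after Benjamini-Hochberg adjustment. Arrays of the groups did not overlap at 6 of the 32 probe sets, beside 11.6% of all probe sets. These 6 belonged to MCL1, PMAIP1 and BAD, with 2 each. The median log ratio of the 9 members was −0.01, and that of all genes was −0.02.

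In heat shock against sham, 1 of the 9 members was called, MCL1, which was higher, and none was lower, beside 5.71% of all genes called in either direction, 1.72% higher and 3.99% lower. Over probe sets, 4 of 32 were called, beside 4.17% of the array, and all 4 were higher, beside 1.81% of all probe sets called higher and 2.36% called lower. They were a pair of MCL1 probe sets and 1 each of BCL2L11 and BAD. All but the brightest of MCL1 lay in quartile 3 of signal, where the median heat shock ratio was 0.14. Groups did not overlap at 13 of the 32, beside 26.5% of all probe sets. The methods' t-test passed 3 of the 9 members at an unadjusted p of 0.05 or less, beside 21.6% of all genes. The median log ratio of the members was 0.24 and that of all genes 0.14.

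In nsEP against heat shock, 1 of the 9 members was called, again MCL1, which was lower after nsEP, beside 5.99% of all genes called in either direction, 3.83% higher and 2.16% lower. Of the 32 probe sets, 5 were called, beside 4.96% of the array. Of these, 2 were higher and 3 were lower, beside 2.31% and 2.65% of all probe sets. Both that were higher belonged to MCL1, and those that were lower belonged to MCL1, BCL2L11 and BAD. Groups did not overlap at 13 of the 32, beside 23.1% of all probe sets. The methods' t-test at that threshold passed 2 of the 9 members, beside 16.8% of all genes. The median log ratio was −0.21 for the members and −0.14 for all genes. The last comparison shares its arrays with the other two, so its ratios are not independent of theirs.

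**Figure D1:**
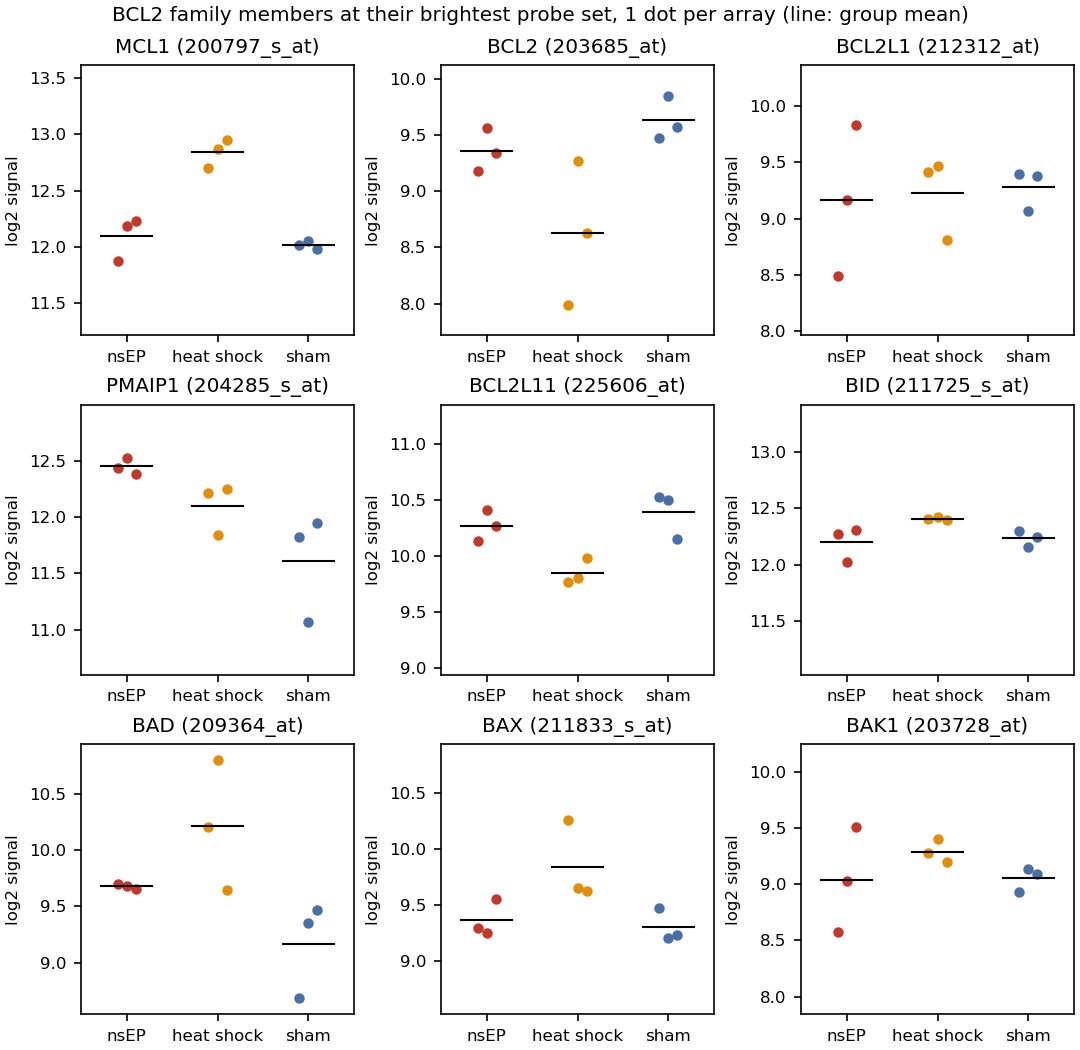
Log2 signal (vertical axes) of the 9 members at their brightest probe set, with 1 dot per array and a line at the mean of the 3 arrays of nsEP, heat shock and sham samples. The 3 heat shock arrays of MCL1 sit between 12.70 and 12.95, above all nsEP and sham arrays, and the 3 nsEP arrays of PMAIP1 sit between 12.38 and 12.53, above all heat shock and sham arrays.

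Among the pro-survival members, MCL1, which binds BAK1 and several BH3-only proteins, gave the only calls. At its brightest probe set, 200797_s_at, the log2 signals were 11.88, 12.19 and 12.23 in nsEP samples, 12.70, 12.87 and 12.95 in heat shock samples and 12.02, 12.06 and 11.98 in sham samples. Heat shock arrays were the highest, and the nsEP and sham arrays overlapped. The mean was 12.84 ± 0.13 after heat shock and 12.02 ± 0.04 in sham samples (SD, n = 3 each), a log ratio of 0.83 (SE 0.14, adjusted p = 0.00647), or 1.77-fold. After nsEP the mean was 12.10 ± 0.19, which differed from heat shock by −0.75 (SE 0.14, adjusted p = 0.0104) and from sham by 0.08 (SE 0.14, 95% interval −0.23 to 0.39, adjusted p = 0.962). When arrays were scaled on their poly-A spike-ins the heat shock ratio of this probe set turned to −0.20 and nsEP against heat shock turned to 0.21 (adjusted p = 0.777 and 0.788). Under this scaling the SE was 0.45. The sources do not state when or how much spike-in was added, so this scaling is only an alternative. When arrays were centred on their medians the ratios were 0.52 and −0.42 (adjusted p = 0.0647 and 0.133), and without heat shock replicate 3 nsEP against heat shock was −0.69 (adjusted p = 0.0590). Without the variance trend in limma neither passed (adjusted p = 0.0943 and 0.104).

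The other 5 MCL1 probe sets did not all follow the brightest. At 200798_x_at the signals were 12.35, 12.93 and 11.81 in nsEP samples, 11.06, 11.45 and 11.27 in heat shock samples and 10.93, 11.57 and 11.63 in sham samples. At 214056_at they were 10.47, 10.23 and 9.78 in nsEP, 9.12, 9.36 and 9.20 in heat shock and 9.45, 9.27 and 9.24 in sham samples. At both, the nsEP arrays were the highest, with no overlap with either other group, and the heat shock and sham arrays overlapped. Against heat shock, nsEP was higher by 1.10 at 200798_x_at (SE 0.26, adjusted p = 0.0307) and by 0.93 at 214056_at (SE 0.19, adjusted p = 0.0138). Against sham the ratios were 0.99 and 0.84, which did not pass the test (adjusted p = 0.358 and 0.237), and for heat shock against sham they were −0.11 and −0.09. Both calls of nsEP against heat shock were lost when an array was left out. The call at 200798_x_at was lost without nsEP replicate 1 (adjusted p = 0.0715), nsEP replicate 2 (0.117) and each heat shock replicate (0.122, 0.0571 and 0.0960), and that at 214056_at without nsEP replicate 1 (0.050), nsEP replicate 2 (0.0603) and heat shock replicates 1 and 3 (0.0628 and 0.0572). Without the variance trend the adjusted p were 0.153 and 0.0935, and with poly-A scaling the ratios were 2.05 and 1.88.

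Centring on array medians and poly-A scaling move all probe sets of an array alike. They do not move the difference between the ratios of probe sets of a gene, while quantile normalization can. For nsEP against heat shock, the ratio at 200798_x_at minus the ratio at 200797_s_at was 1.85, and that at 214056_at minus 200797_s_at was 1.68. These pairs were chosen after their values were seen, and the differences were given no test. In nsEP against heat shock, 230 genes of the array had 2 or more called probe sets, and 21 of these, or 9.13%, had probe sets called in both directions. MCL1 is 1 of the 21. RefSeq holds 3 curated MCL1 transcripts, of which the long form keeps cells alive and a shorter splice form is known to favour death. The platform table does not say which transcript a probe set reads, and the x in a probe set's name marks probes that can also match other transcripts, so the signal at 200798_x_at may not be of MCL1 alone.

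At 200796_s_at the signals were 8.01, 7.65 and 6.95 in nsEP samples, 8.29, 8.23 and 8.34 in heat shock samples and 4.89, 7.37 and 6.62 in sham samples. The 3 sham arrays were spread over more than 2 log2 units, with sham replicate 1 the lowest, and the heat shock arrays lay above all others. Heat shock was higher than sham by 2.00 (SE 0.51, adjusted p = 0.0472), a call that was lost under 11 of 15 alternatives and was 1.3 without sham replicate 1 (adjusted p = 0.0904). It was also lost without sham replicate 3 (adjusted p = 0.0843) and without each heat shock replicate (0.134, 0.117 and 0.133). The nsEP ratio was 1.24 (adjusted p = 0.645), and 0.54 without sham replicate 1. At 214057_at and 227175_at no comparison was called. Their heat shock ratios were 0.94 and 0.86 (adjusted p = 0.0673 and 0.333) and their nsEP ratios were 0.47 and 1.17 (adjusted p = 0.792 and 0.608).

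**Figure D2:**
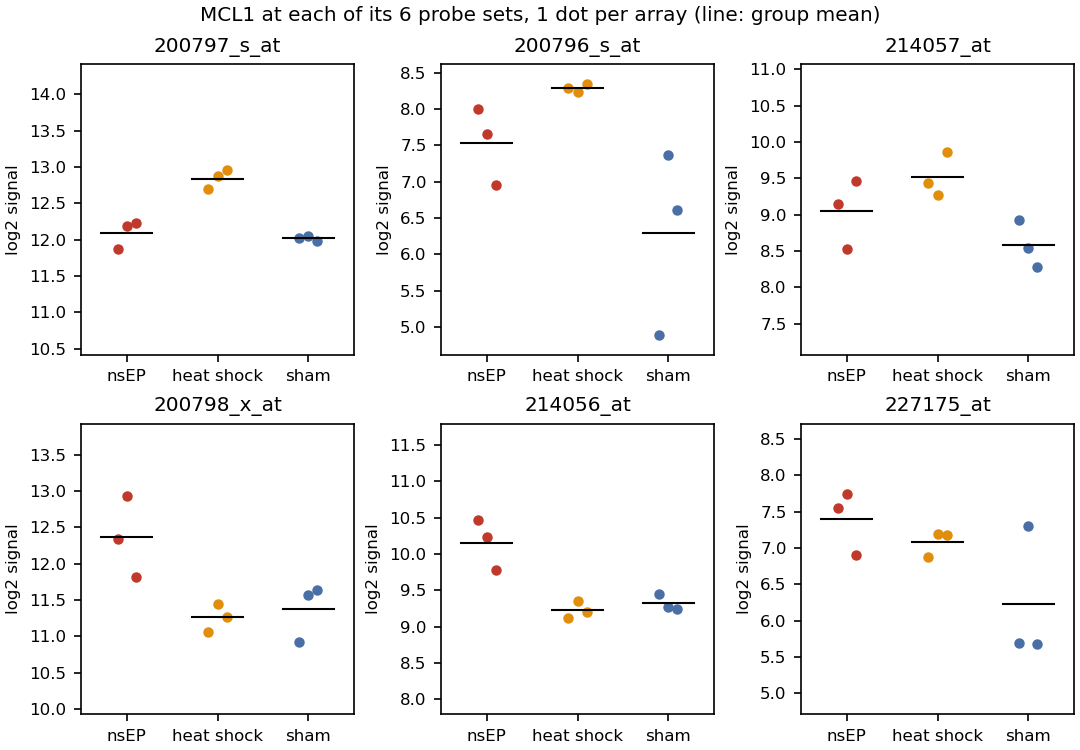
Log2 signal (vertical axes, each spanning 4 log2 units) of MCL1 at its 6 probe sets, with 1 dot per array and a line at the mean of the 3 nsEP, heat shock and sham arrays. Heat shock is the highest group at 200797_s_at, 200796_s_at and 214057_at, and nsEP is the highest at 200798_x_at, 214056_at and 227175_at.

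BCL2, the founding pro-survival gene, had signals of 9.18, 9.56 and 9.34 in nsEP samples, 7.99, 9.26 and 8.63 in heat shock samples and 9.47, 9.85 and 9.57 in sham samples at 203685_at. The heat shock arrays lay below the sham arrays but were widely spread, and nsEP arrays overlapped with both groups. The heat shock ratio of −1.0 (SE 0.27, 95% interval −1.59 to −0.41) did not pass the test (adjusted p = 0.0612). It passed as lower under 6 alternatives, among them centring on the array medians (−1.31, adjusted p = 0.0114) and leaving out heat shock replicate 2 (−1.32, adjusted p = 0.0137). For nsEP the ratio was −0.27 against sham (adjusted p = 0.919) and 0.73 against heat shock (adjusted p = 0.158). The other 3 BCL2 probe sets were dimmer, and their heat shock ratios of −0.10, 0.09 and 0.46 had adjusted p from 0.501 to 0.966.

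BCL2L1 encodes BCL-XL, which guards the mitochondrion together with BCL2, and by splicing also the shorter death-promoting BCL-XS. At 212312_at its signals were 8.49, 9.16 and 9.83 in nsEP samples, 9.41, 9.47 and 8.81 in heat shock samples and 9.39, 9.07 and 9.38 in sham samples. The 3 groups overlapped, and the nsEP arrays were the most spread. The ratios were −0.12 for nsEP against sham (95% interval −0.76 to 0.53), −0.05 for heat shock against sham (−0.70 to 0.59) and −0.07 for nsEP against heat shock (−0.71 to 0.58). None of its 4 probe sets was called in any comparison. The dimmest, 206665_s_at, had nsEP signals of 6.84, 5.36 and 1.43, so that its interval for nsEP against sham ran from −1.36 to 3.81.

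PMAIP1, the BH3-only gene of NOXA, a partner that neutralises MCL1, had the largest nsEP ratio of the 9 members at their brightest probe sets. At 204285_s_at its signals were 12.44, 12.53 and 12.38 in nsEP samples, 12.21, 11.84 and 12.25 in heat shock samples and 11.83, 11.07 and 11.95 in sham samples. The nsEP arrays were the highest 3 of the 9, and sham replicate 2 was the lowest. The mean was 12.45 ± 0.07 after nsEP and 11.61 ± 0.48 in sham samples (SD, n = 3 each), a log ratio of 0.84 (SE 0.21, 95% interval 0.38 to 1.3) that did not pass the test (adjusted p = 0.307). At the second probe set, 204286_s_at, the nsEP arrays with 11.82, 11.39 and 11.19 again lay above the sham arrays with 10.90, 11.15 and 10.84, with a ratio of 0.50 (SE 0.18, adjusted p = 0.575). Neither was called under any of the 15 alternatives, where the lowest adjusted p was 0.190 and 0.247. Without sham replicate 2 the ratio at 204285_s_at was 0.56 for nsEP against sham. For heat shock against sham the ratios were 0.49 and 0.26 (adjusted p = 0.247 and 0.481), the first of which was 0.22 without sham replicate 2 and −0.54 with poly-A scaling, and for nsEP against heat shock 0.35 and 0.24 (adjusted p = 0.411 and 0.518).

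BCL2L11 encodes BIM, a BH3-only protein that binds all pro-survival members and is made in several splice forms. RefSeq holds 18 curated transcripts of it, and the array has 7 probe sets. At the brightest, 225606_at, the signals were 10.14, 10.41 and 10.26 in nsEP samples, 9.77, 9.80 and 9.98 in heat shock samples and 10.52, 10.50 and 10.15 in sham samples. Those of heat shock were the lowest 3 of the 9, but the ratio against sham of −0.54 (SE 0.16) did not pass the test (adjusted p = 0.0853), and it passed under 3 alternatives. At 1555372_at the heat shock arrays lay on the other side. There the signals were 8.02, 7.57 and 7.68 in nsEP samples, 9.55, 9.51 and 9.37 in heat shock samples and 8.44, 7.80 and 8.13 in sham samples, and the heat shock arrays were the highest 3. Heat shock was higher than sham by 1.35 (SE 0.22, adjusted p = 0.00394), or 2.55-fold, and nsEP was lower than heat shock by 1.72 (log ratio −1.72, SE 0.22, adjusted p = 0.000734). Against sham the nsEP ratio was −0.37 (adjusted p = 0.808). Both calls at 1555372_at were lost under 1 of 15 alternatives, scaling on poly-A spike-ins, with 0.32 and −0.77 (adjusted p = 0.688 and 0.352). The remaining 5 probe sets were not called, with heat shock ratios from −0.32 to 0.99.

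BAD encodes a BH3-only protein that survival kinases hold inactive by phosphorylation. At its brightest probe set, 209364_at, the signals were 9.70, 9.68 and 9.65 in nsEP samples, 10.20, 10.80 and 9.64 in heat shock samples and 8.69, 9.36 and 9.47 in sham samples. The sham arrays were the lowest 3, and heat shock replicate 3 lay just below the nsEP arrays. The heat shock ratio was 1.05 (SE 0.27, adjusted p = 0.0511). It passed under 4 alternatives, among them leaving out heat shock replicate 3, with 1.33 (adjusted p = 0.0217). The nsEP ratio was 0.51 (adjusted p = 0.774), and 0.27 without sham replicate 1. At 232660_at the signals were 5.91, 6.33 and 5.71 in nsEP samples, 8.66, 8.65 and 8.25 in heat shock samples and 6.33, 7.16 and 6.81 in sham samples. The heat shock arrays stood above all others, and the nsEP arrays were the lowest 3. Heat shock was higher than sham by 1.75 (SE 0.32, adjusted p = 0.00820), or 3.37-fold. Set against heat shock, nsEP had a log ratio of −2.54 (SE 0.32, adjusted p = 0.000688), the largest difference among the members' called probe sets. For nsEP against sham the ratio at 232660_at was −0.79 (adjusted p = 0.642), so that 209364_at and 232660_at had nsEP ratios of opposite sign and neither was called. The heat shock call at 232660_at was lost without heat shock replicate 1, with 1.68 (adjusted p = 0.0510), and with poly-A scaling, with 0.72 (adjusted p = 0.451). With poly-A scaling nsEP against heat shock was −1.59 (adjusted p = 0.131). The third probe set of BAD, 1861_at, had a heat shock ratio of 0.26 (adjusted p = 0.541) and an nsEP ratio of −0.22 against sham (adjusted p = 0.908).

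**Figure D3:**
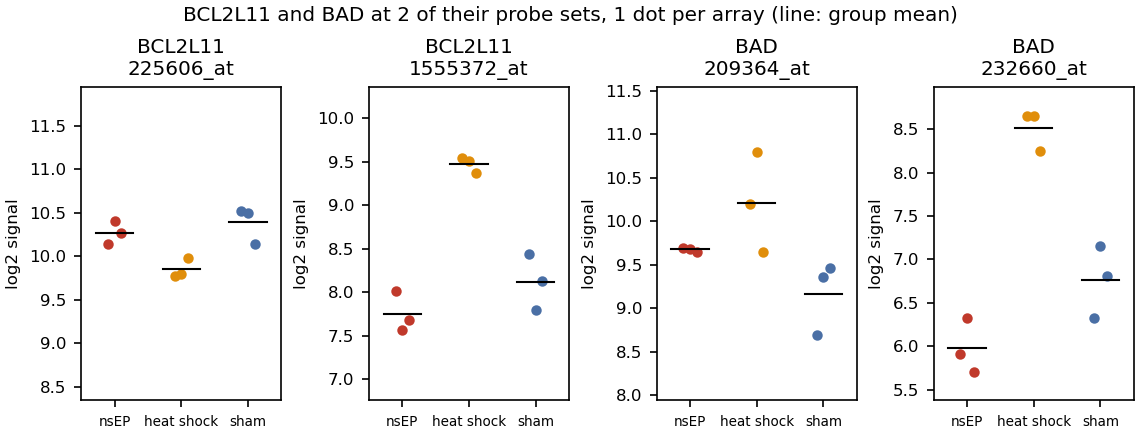
Log2 signal (vertical axes) of BCL2L11 and BAD, each at its brightest probe set and at its called probe set, with 1 dot per array and a line at the mean of the 3 nsEP, heat shock and sham arrays. At 1555372_at the heat shock arrays lie between 9.37 and 9.55 and at 232660_at between 8.25 and 8.66, in both cases above every nsEP and sham array.

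BID, which caspase-8 cuts to link death receptors to the mitochondrion, was measured by 3 probe sets in the brightest quartile. At 211725_s_at its signals were 12.28, 12.02 and 12.31 in nsEP samples, 12.41, 12.42 and 12.40 in heat shock samples and 12.30, 12.16 and 12.24 in sham samples. All 3 heat shock arrays were the highest, by a small step. The ratio was 0.18 for heat shock against sham (95% interval −0.12 to 0.47, adjusted p = 0.535) and −0.03 for nsEP against sham (−0.32 to 0.26, adjusted p = 0.987). At the other 2 probe sets the heat shock ratios were −0.04 and −0.22 and the nsEP ratios −0.12 and −0.17, and none was called.

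BBC3 encodes PUMA, a BH3-only protein that p53 induces. Its probe set, 211692_s_at, is listed with MIR3190, MIR3191 and BBC3 together, so its signal cannot be given to 1 gene. The signals were 3.86, 7.70 and 7.39 in nsEP samples, 7.88, 8.13 and 8.09 in heat shock samples and 7.81, 7.31 and 8.03 in sham samples. nsEP replicate 1 alone was far below the rest. The nsEP ratio of −1.40 had an SE of 0.75 and an adjusted p of 0.774, and the heat shock ratio was 0.32 (adjusted p = 0.867).

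The effectors were not called in any comparison. BAX, which moves from the cytosol to the mitochondrion, had signals of 9.30, 9.25 and 9.56 in nsEP samples, 10.25, 9.65 and 9.62 in heat shock samples and 9.47, 9.21 and 9.23 in sham samples at 211833_s_at. The heat shock arrays lay above all others, with heat shock replicate 1 the highest. The heat shock ratio was 0.54 at this probe set and 0.55 at 208478_s_at (adjusted p = 0.168 and 0.227), and the nsEP ratios were 0.06 and 0.07. BAK1, which resides in the outer mitochondrial membrane, had 8.58, 9.03 and 9.51 in nsEP samples, 9.27, 9.40 and 9.19 in heat shock samples and 8.93, 9.14 and 9.09 in sham samples at its only probe set, 203728_at. Its ratio was 0.24 for heat shock against sham (95% interval −0.24 to 0.72, adjusted p = 0.620) and −0.01 for nsEP against sham (−0.49 to 0.47, adjusted p = 0.998).

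**Figure D4:**
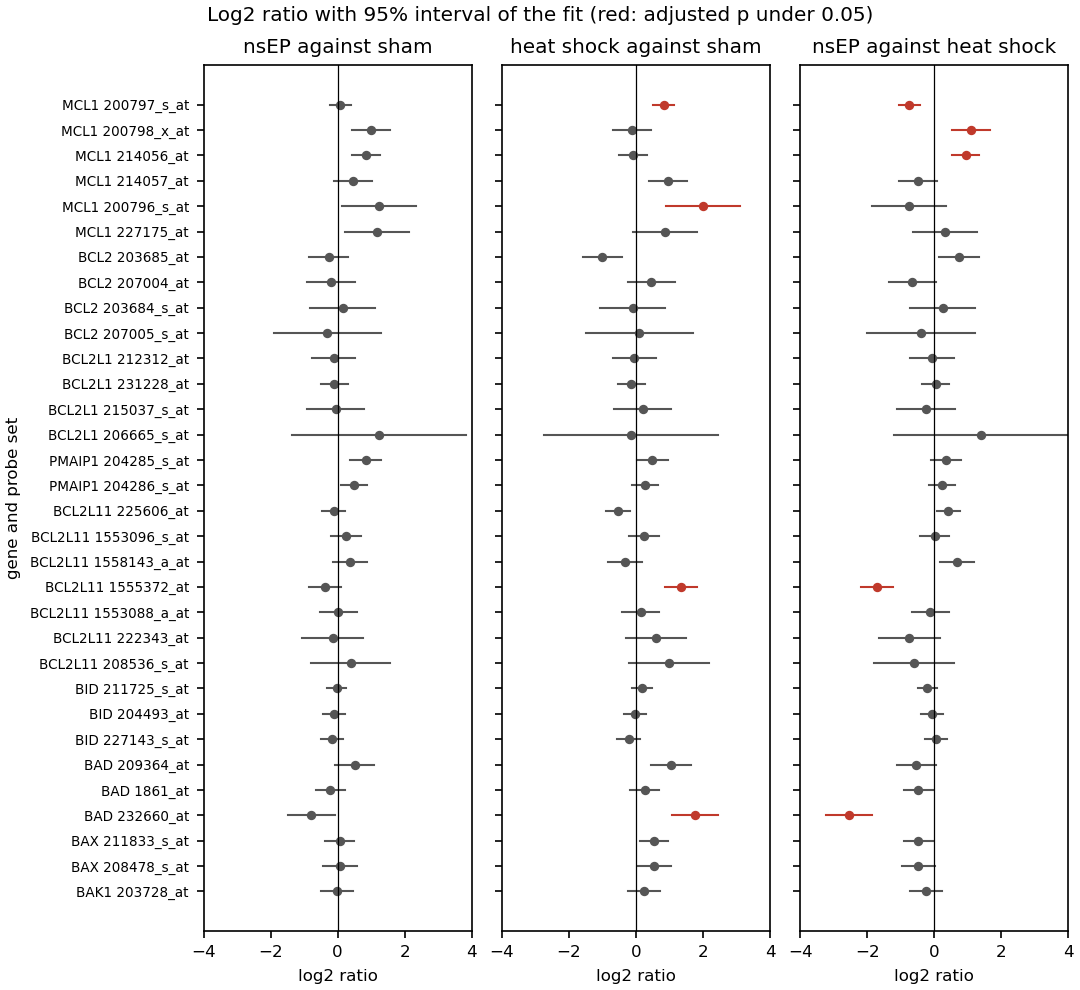
Log2 ratio (horizontal axes) of the 32 probe sets of the members, with bars for the 95% interval of the limma fit, for each of the 3 comparisons. Probe sets in red passed an adjusted p of 0.05, which are 0, 4 and 5 of the 32 in these panels, and MCL1 has red points on both sides of 0 in the last.

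Side by side, the classes had the following medians at the brightest probe sets. For nsEP against sham the median was −0.12 over the 3 pro-survival members, 0.24 over the 4 BH3-only members measured and 0.03 over the 2 effectors, and 0 members of any class were called. For heat shock against sham these medians were −0.05, 0.33 and 0.39, beside 0.14 for all genes, and the only call was MCL1. For nsEP against heat shock they were −0.07, 0.07 and −0.36, beside −0.14 for all genes, again with MCL1 as the only call. The pro-survival heat shock ratios at these brightest probe sets ran from −1.0 for BCL2 to 0.83 for MCL1. The BH3-only ratios there ran from −0.54 for BCL2L11 to 1.05 for BAD, and the effector ratios from 0.24 for BAK1 to 0.54 for BAX. At other probe sets, the BH3-only members BCL2L11 (1.35 at 1555372_at) and BAD (1.75 at 232660_at) were called higher after heat shock. So was MCL1 (2.00 at 200796_s_at). In nsEP against heat shock, other probe sets of BCL2L11 and BAD were called lower (−1.72 and −2.54) and 2 of MCL1 higher (1.10 and 0.93). With so few genes to a class the medians are a description.

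Promoters are shown because heat shock acts through heat shock elements and JUN, which was higher after both exposures, acts through AP-1 and cAMP response elements. RefSeq promoters (GRCh38.p14) were matched for 9 of the 10 members, all but MCL1, and the 250 bases before each start were searched on both strands. The heat shock element (GAA, then TTC, then GAA again, each 2 bases apart) was in 0 of the 9 and in 0.439% of 27305 promoters of this length. Its short form GAANNTTC was in 1 of 9, BAK1, and in 5.85% of all. The AP-1 site TGANTCA was in 1 of 9, BBC3, and in 6.6% of all, and the cAMP response element TGACGTCA was in 0 of 9 and in 1.77%. Its half-site TGACG and the E-box CACGTG were added after the sequences had been read. The half-site was in 5 of 9, namely BAD, PMAIP1, BCL2, BAX and BCL2L1, and in 21.7% of all. The E-box was in 2 of 9, BAX with 4 matches and BBC3 with 1, and in 6.49% of all. The first E-box of BAX overlaps its half-site. The matches are descriptions of the letters only. The pair with matches to the motifs of heat shock and AP-1, and PMAIP1 and BAX as examples of the others, read as follows, with matches in capitals.
BAK1, chr6:33580277-33580526, minus strand, short heat shock element in capitals: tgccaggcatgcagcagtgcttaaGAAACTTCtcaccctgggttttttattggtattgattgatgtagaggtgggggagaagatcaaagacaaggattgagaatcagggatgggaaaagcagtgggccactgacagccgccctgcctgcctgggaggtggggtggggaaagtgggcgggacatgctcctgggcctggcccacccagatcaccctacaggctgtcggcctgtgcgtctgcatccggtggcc
BBC3, chr19:47232668-47232917, minus strand, E-box and AP-1 site in capitals: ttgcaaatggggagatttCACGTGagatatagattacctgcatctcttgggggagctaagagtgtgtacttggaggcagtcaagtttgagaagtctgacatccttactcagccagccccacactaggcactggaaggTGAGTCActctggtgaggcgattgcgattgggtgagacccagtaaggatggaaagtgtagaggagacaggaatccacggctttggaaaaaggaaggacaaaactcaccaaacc
PMAIP1, chr18:59899746-59899995, plus strand, cAMP response element half-site in capitals, read on the other strand: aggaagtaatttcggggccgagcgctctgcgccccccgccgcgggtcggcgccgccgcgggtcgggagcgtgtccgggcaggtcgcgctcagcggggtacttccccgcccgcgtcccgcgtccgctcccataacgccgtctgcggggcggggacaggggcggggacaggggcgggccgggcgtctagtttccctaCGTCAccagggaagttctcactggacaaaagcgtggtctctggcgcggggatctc
BAX, chr19:48954625-48954874, plus strand, E-boxes and the half-site in capitals: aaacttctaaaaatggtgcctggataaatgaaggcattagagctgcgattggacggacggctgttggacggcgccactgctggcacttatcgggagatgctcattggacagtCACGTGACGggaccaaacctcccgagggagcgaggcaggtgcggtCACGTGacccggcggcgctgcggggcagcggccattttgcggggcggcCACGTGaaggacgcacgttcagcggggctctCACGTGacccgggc
Of these 4 genes, BAK1, PMAIP1 and BAX were not called in any comparison and BBC3 had no probe set of its own. Of the other genes with the half-site, BAD was called at 232660_at, and BCL2 and BCL2L1 were not called at any probe set. BCL2L11, which had no match to any of these motifs, was called at a probe set other than its brightest. BID, also without a match, was not called. MCL1, called at its brightest probe set, had no promoter to search. A relation between the motifs and the calls was not tested.

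JUN, the AP-1 subunit that acts on BCL2L11 and other family genes, had signals of 13.13, 13.69 and 13.41 in nsEP samples, 14.80, 14.65 and 14.87 in heat shock samples and 10.08, 9.90 and 9.85 in sham samples. No group overlapped with another, and this probe set too is of the x kind. Its log ratio was 3.47 for nsEP against sham (adjusted p = 1.02e-06), 4.83 for heat shock against sham (adjusted p = 1.01e-08) and −1.36 for nsEP against heat shock (adjusted p = 0.000523), the last of which was −0.41 with poly-A scaling (adjusted p = 0.576). It belongs to a list of 16 transcription factors that act on family genes, of which 15 were measured. For nsEP against sham JUN was the only 1 of the 15 called. After heat shock 1 was higher and 1 was lower. The lower one was GFI1, a repressor of BAX, with −1.44 (adjusted p = 0.00167), and −2.47 with poly-A scaling. In nsEP against heat shock 2 were higher and 1 was lower. The higher ones were GFI1, with 1.00 (adjusted p = 0.0141, but 0.0664 without nsEP replicate 2 and 0.0538 without heat shock replicate 2), and FOXO3, an activator of BCL2L11 and PMAIP1, with 0.73 (adjusted p = 0.0330), a call lost without nsEP replicate 2 (adjusted p = 0.120) and without each heat shock replicate (0.130, 0.0524 and 0.106). With poly-A scaling these nsEP against heat shock ratios were 1.95 and 1.68.

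Other genes of the pathway were counted at their brightest probe sets, beside the shares of all genes called given above (0.0607%, 5.71% and 5.99% in the order nsEP to sham, heat shock to sham and nsEP to heat shock). Of 13 further family genes, 0 were called for nsEP against sham and 0 were at an unadjusted p under 0.05. BNIP3 and BNIP3L, which mark mitochondria for removal, had ratios of −0.33 and −0.26 (adjusted p = 0.784 and 0.815). After heat shock 1 of the 13 was lower, BCL2L2, the pro-survival gene of BCL-W, with signals of 6.75, 6.25 and 7.09 in nsEP samples, 5.25, 4.12 and 4.66 in heat shock samples and 6.71, 6.46 and 6.40 in sham samples. For BCL2L2 the heat shock arrays were the lowest 3 and below the median signal of the array. Its log ratio was −1.85 for heat shock against sham (adjusted p = 0.0384) and 2.02 for nsEP against heat shock (adjusted p = 0.0223), and both calls were lost when arrays were left out. With 32 signal units added the ratios were −1.09 and 1.23, and with poly-A scaling −2.88 and 2.97. The first was lost without each sham replicate (adjusted p = 0.132, 0.115 and 0.0908) and without heat shock replicates 2 and 3 (0.111 and 0.0905), and the second without nsEP replicates 1 and 3 (0.0659 and 0.0543) and heat shock replicates 2 and 3 (0.0677 and 0.0631).

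Of 16 regulators of BCL2 family proteins, 0 were called for nsEP against sham, and 1 was lower after heat shock. This was CASP8, the protease that cuts BID, with signals of 12.08, 12.01 and 11.91 in nsEP samples, 10.82, 10.76 and 10.84 in heat shock samples and 11.95, 11.96 and 11.66 in sham samples. Heat shock gave the lowest 3 by a wide gap. The log ratio was −1.05 for heat shock against sham (adjusted p = 0.000958) and 1.19 for nsEP against heat shock (adjusted p = 0.000409), and both passed under all 15 alternatives, with −2.08 and 2.14 under poly-A scaling. MARCHF5, a ubiquitin ligase of the mitochondrion, and PIM2, a kinase that phosphorylates BAD, had the smallest p of this list for nsEP, with ratios of 0.42 and 0.39 (adjusted p = 0.738 and 0.744). Of 12 genes of the mitochondrial steps after the family, 0 were called in any comparison, with 1, 2 and 3 at an unadjusted p under 0.05 in the order nsEP to sham, heat shock to sham and nsEP to heat shock. Among them, APAF1, which cytochrome c assembles into the apoptosome, had a ratio of −0.52 for nsEP against sham (adjusted p = 0.614), and OMA1, a stress protease of the inner membrane, had −0.73 for heat shock against sham (adjusted p = 0.0692).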

How the data were processed

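The deposited table holds log2 values that the authors made from MAS5 signals of Affymetrix human arrays in GeneChip Operating Software, 1 column per sample. MAS5 gives 1 signal for the probes of a probe set and brings the trimmed mean of every array to a common value, so the deposited log2 values keep differences in array medians, and dim probe sets scatter widely. Of 54675 probe sets, 62 controls were set aside. Through the platform's probe table, 41091 had 1 symbol, 1801 had several and 11721 none. Groups and replicate numbers came from the sample titles.

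All 9 arrays entered 1 fit in limma 3.58.1 (R 4.3.3) with group means as coefficients, moderated two-sided tests with a variance trend on signal, and p-values adjusted by Benjamini-Hochberg over 54613 probe sets. The fit was run on simulated data with independent noise, which held no shifts between arrays and no outlying array. An exact permutation test of 3 arrays against 3 cannot go below p = 0.1, and the number of arrays limits the precision. Members, lists and tests were chosen with earlier results of these data known. Named were all members, from each other list up to 4 called genes with the largest ratio or up to 2 with the smallest p, and for a called member up to 3 genes with the highest correlation. Alternatives were 3 scalings, 32 signal units added before log2, a filter on dim probe sets, no variance trend, the 6 arrays of a comparison, array weights, the replicate number as a block, each array left out, and the methods' t-test.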

Additional observations from a re-analysis of the deposited data

How the results depend on the processing

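Each member's ratio was recomputed under 15 alternatives for each comparison (14 for probe sets that the filter on dim probe sets removed). Of these values, 1377 kept their side of the threshold, 32 lost a call, 20 gained a call and 2 turned sign with a call. The 2 were MCL1 at 200797_s_at under scaling to poly-A spike-ins, −0.20 for heat shock against sham and 0.21 for nsEP against heat shock. A sign change between values that were not called in either setting was counted as kept, and there were 111.

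The number of the 9 members called for heat shock against sham (1 as reported) was 2 with quantile normalization, 2 with centring on array medians and 2 with poly-A scaling (both times 0 higher and 2 lower), 3 without dim probe sets, 0 without the variance trend, 4 with array weights, and 3 when any probe set of a gene could be called. For nsEP against heat shock (1 as reported, lower) it was 2 with centring and 0 with poly-A scaling. It was 0 without the variance trend and 3 with any probe set. The 2 with centring were BCL2 and BCL2L11, both higher after nsEP, and MCL1 was not called there (adjusted p = 0.133). The methods' t-test at an unadjusted p of 0.05 or less passed 1 for nsEP against sham, 3 for heat shock against sham and 2 for nsEP against heat shock. At the study's thresholds and after Benjamini-Hochberg adjustment it passed 0 in the last 2 comparisons. Leaving out 1 array gave 0 to 0, 1 to 2 and 0 to 2 members in the order nsEP to sham, heat shock to sham and nsEP to heat shock. The 2 and 0 came without heat shock replicate 2 (2 in both heat shock comparisons) and without heat shock replicate 3 (2 and 0).

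Over the whole array, 32 probe sets were called for nsEP against sham. There were 12 with poly-A scaling, 63 without dim probe sets, 7 without the variance trend, 14 with 6 arrays, 52 with array weights, and 3325, 421 and 0 with the t-test at the unadjusted p, at the study's thresholds and after adjustment. For heat shock against sham the 2276 calls became 4571 with centring, 3762 with poly-A scaling, 837 without the trend and 9613, 1161 and 377 with the t-test. For nsEP against heat shock the 2707 calls became 4792 with centring, 1100 without the trend and 8190, 1257 and 124 with the t-test. Leaving out 1 array gave 15 to 36, 1130 to 1421 and 1343 to 4018. The share of calls that were higher was 43.4% for heat shock against sham, 15.6% with centring, 4.17% with poly-A scaling and 66.7% without the trend. For nsEP against heat shock it was 46.6%, 79.7%, 92.8% and 27.3%. The cause of these changes was not tested.

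Over the array, deviations of samples with the same replicate number had correlations from −0.07 to 0.05. For samples with different numbers they ran from −0.08 to 0.08. With 3 samples per group and dim probe sets included, these values cannot tell whether the numbers pair the samples. With the replicate number as a block, 0, 2 and 1 members and 31, 2268 and 2544 probe sets were called, the added member being BCL2, lower after heat shock (adjusted p = 0.0230). The MCL1 call at 200796_s_at was lost (adjusted p = 0.0576).

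Dim probe sets limit what can be seen, since SDs within groups had a median of 1.09 in the lowest quartile of signal.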

Other observations

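Over the 9 arrays, the genes whose brightest probe sets followed MCL1 at 200797_s_at most closely, among 12230 genes at or above the median signal, were SLC2A3, a glucose transporter, with r = 0.98, RHOB, a small GTPase, with r = 0.98, and IER3, an immediate early gene, with r = 0.98. The arrays share the 3 group means, so these values describe the pattern and carry no test.

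The 8 reference genes measured, none of them called in any comparison by limma (at an unadjusted p under 0.05 there were 0 for nsEP against sham, 2 for heat shock against sham and 0 for nsEP against heat shock), had a median log ratio of 0.14 for nsEP against sham and 0.41 for heat shock against sham, beside −0.02 and 0.14 for all genes. The mean log2 signal of the 24 poly-A spike-in probe sets was 9.89 to 11.16 in nsEP samples, 11.07 to 11.69 in heat shock samples and 9.74 to 10.74 in sham samples. In heat shock against sham, 183 genes had 2 or more called probe sets and 9 of them (4.92%) had probe sets called in both directions.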
